A study of Homo sapiens with 9 samples.

Results

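The Krüppel-like factor (KLF) genes other than KLF1 were followed in polyadenylated RNA of human cells that the labels call NB4, given DMSO (the solvent), FB23 or FB23-2 for 48 h. A list of 10 genes was used: KLF2, KLF3, KLF4, KLF5, KLF6, KLF7, KLF9, KLF10, KLF11 and KLF13. Of these, 9 had a row by symbol among the 26830 genes in the files, and KLF13 was not analysed here. KLF7 had too few counts for a test, so 8 were among the 13365 genes tested. Each treatment had 3 libraries. The treated groups carry the label FTO inhibition, FTO being a demethylase of N6-methyladenosine in RNA, and the DMSO libraries the label Ctrl. All groups share the same cell line label and the same harvest time. The labels give no doses and do not say whether replicates came from separate cultures, so doses cannot be matched between the compounds, and the spread between libraries may be technical.

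KLF proteins are transcription factors that bind GC-rich and CACCC-type DNA through zinc fingers at the end of the protein. KLF2, KLF4, KLF5, KLF6 and KLF7 mostly act as activators, KLF3 recruits the CtBP corepressors, and KLF9, KLF10, KLF11 and KLF13 recruit the corepressor SIN3A. In blood, KLF1 drives red cell genes, KLF2 keeps lymphocytes and monocytes quiescent, and KLF4 is known for its part in monocyte maturation. The genes were chosen by their counts and TPM in all 3 groups, so their values are a description, and "called" marks a gene that passed an adjusted p under 0.05 over all genes tested (edgeR's quasi-likelihood test). CPM are counts scaled to a common library total with TMM factors, and TPM, the submitters' unit, also corrects for gene length.

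Libraries held 12360291 to 38410750 expected counts, the fewest in FB23 replicate 1, and the first principal component (87.5% of the variance) parted the FB23-2 libraries from DMSO and FB23. NB4 derives from a promyelocytic leukaemia, while the cell type label reads acute monocytic leukemia. Of 5 promyelocyte granule markers, 3 had no count in DMSO and the list summed to at most 1.77 TPM in any library. The 9 erythroid markers, KLF1 among them, summed to between 25914 and 27436 TPM in DMSO libraries. The FB23 libraries gave 29267 to 31318 TPM and the FB23-2 libraries 3627 to 4070 TPM. With FB23-2, 9 of 9 were called lower than in DMSO, beside 41.3% of all genes tested. The granule and erythroid marker levels go against a promyelocytic line, so the name NB4 rests on the labels alone. The 4 epithelial markers summed to 675 to 683 TPM, 726 to 750 TPM and 2889 to 3081 TPM in the same order. The 6 monocyte and myeloid markers summed to 53.1 to 53.4, 43.3 to 46.0 and 59.0 to 61.6 TPM. Lymphoid markers (at most 1.42 TPM) and megakaryocyte markers (at most 2.42 TPM) were near 0. The part of these markers' shifts in the KLF values was not tested, and in bulk RNA fewer cells of a type cannot be told apart from less RNA per cell.

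KLF3 was the most abundant of these genes in DMSO and KLF6 and KLF2 with FB23-2. The 9 genes summed to 65.1 ± 1.06 TPM (SD, n = 3) in DMSO and 65.8 ± 4.36 TPM with FB23. In the FB23-2 libraries the sum was 262 ± 7.20 TPM. KLF3 made up 36.6% of that sum in DMSO, 34.3% with FB23 and 6.20% with FB23-2. KLF2 and KLF6 together made up 13.9%, 18.7% and 66.8%. In DMSO the order of levels per length was KLF3 (23.8 TPM), KLF10 (12.3), KLF9 (11.6), KLF6 (8.52), KLF11 (6.84), KLF4 (0.893), KLF5 (0.577), KLF2 (0.533) and KLF7 (0.00333). Neighbours in that order did not overlap between libraries, except KLF10 with KLF9 and KLF5 with KLF2. With FB23 the order began with KLF3, KLF10 and KLF6, and KLF10 overlapped KLF6, KLF2 overlapped KLF4, and KLF4 overlapped KLF5. With FB23-2 it ran from KLF6 (100.3 TPM) and KLF2 (74.6 TPM) through KLF10 (39.9 TPM), KLF3 (16.2), KLF11 (11.3), KLF9 (8.38), KLF5 (6.24) and KLF4 (4.88) to KLF7 (0.0400), with no overlap between neighbours.

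**Figure D1:**
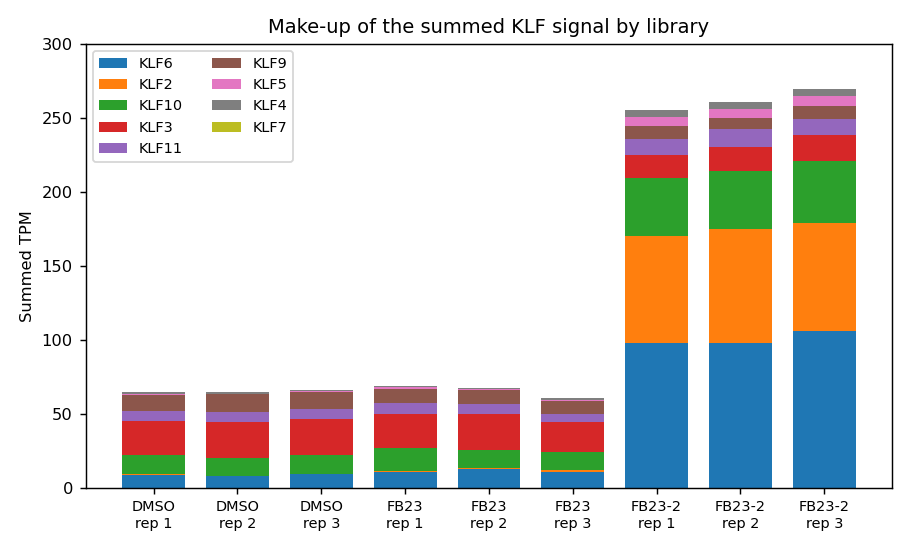
Stacked bars give the TPM of the 9 KLF genes in each of the 9 libraries (y axis, summed TPM; x axis, library). The 3 FB23-2 bars reach 255 to 270 TPM, mostly KLF6 and KLF2, against 60.9 to 69.1 TPM in the 6 DMSO and FB23 bars.

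FB23-2 gave the large changes. Against DMSO all 8 tested genes were called, 6 higher and 2 lower, where 82.6% of all genes tested were called, 41.3% higher and 41.3% lower. A total of 5 genes, KLF2, KLF4, KLF5, KLF6 and KLF10, were higher by at least 1 on the log2 scale, as were 20.7% of all genes. The median log2 fold change of the 8 genes was 1.82, beside 0.01 over all genes tested. Against DMSO, FB23 gave 3 calls, KLF2 and KLF6 higher and KLF9 lower, where 23.5% of all genes were called (12.3% higher, 11.2% lower), and the median of the 8 genes was 0.16 beside 0.00. KLF2 alone was higher by at least 1 (0.763% of all genes). FB23-2 against FB23 again called all 8, 6 higher and 2 lower, beside 81.5% of all genes (40.4% higher, 41.1% lower), and 5 were higher by at least 1 (18.1% of all genes). In CPM, groups did not overlap for 3 of 8 genes with FB23 (37.9% of all genes), 8 of 8 with FB23-2 (84.2%) and 8 of 8 between the compounds (81.2%). The genes were listed with these contrasts in view, so nothing is read from the counts.

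**Figure D2:**
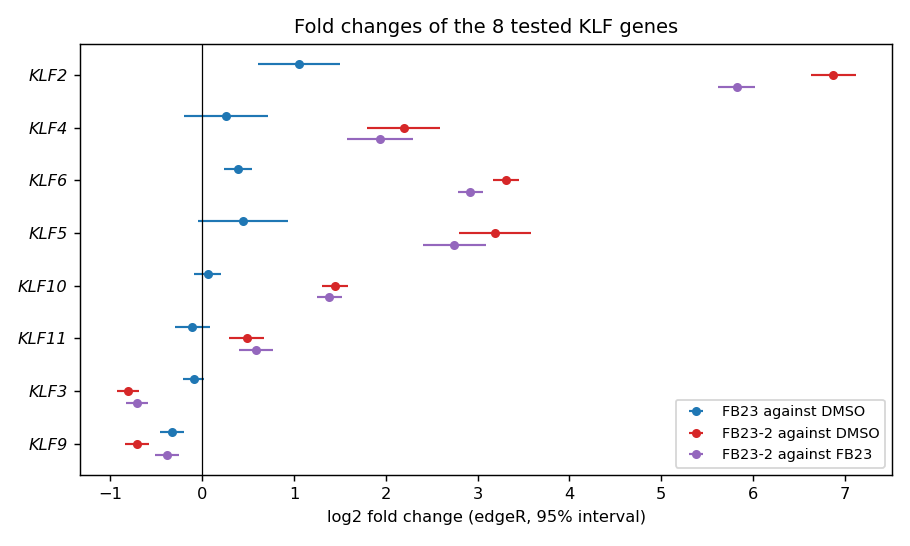
Points give the log2 fold change of each tested KLF gene (x axis, edgeR, with 95% intervals) for each compound against DMSO and for the compounds against each other. KLF2 lies farthest to the right at 6.88 with FB23-2, and KLF3 and KLF9 lie to the left of 0 in all 3 comparisons.

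Among the activators, KLF2 went from under 1 TPM to the second most abundant member with FB23-2. KLF2 (chromosome 19, 16324817 to 16327874, GRCh38) was measured at 1.16, 0.673 and 1.11 CPM in the DMSO libraries, 2.05, 1.83 and 2.19 CPM with FB23, and 115, 121 and 108 CPM with FB23-2. The 3 groups did not overlap, and FB23 lay between the others, close to DMSO. Those levels rest on 49, 162 and 7109 counts per group. KLF2 rose 2.08-fold with FB23 (log2 1.05 ± 0.21 SE) and 118-fold with FB23-2 (log2 6.88, 95% interval 6.64 to 7.12). With FB23-2 this was the 29th highest log2 fold change of 13365, and with FB23 the 179th. On log2(TPM + 1) the same changes were 0.47 and 5.63, since the added 1 weighs on a gene this low.

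KLF6, an early-induced factor also described as a tumour suppressor (chromosome 10, 3775996 to 3785281), was already present in DMSO. It stood at 28.4, 24.2 and 27.9 CPM in DMSO, 32.0, 38.3 and 33.8 CPM with FB23, and 266, 262 and 268 CPM with FB23-2. Again no library of 1 group reached another group. KLF6 rose 1.31-fold with FB23 (log2 0.39, interval 0.23 to 0.54) and 9.89-fold with FB23-2 (log2 3.31, interval 3.16 to 3.45), the 390th highest of all genes tested.

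KLF4 and KLF5 were low in the solvent and rose with FB23-2. KLF4, a reprogramming factor as well as a monocyte factor (chromosome 9, 107484852 to 107490482), stood at 1.89, 1.85 and 1.36 CPM in DMSO, 2.05, 1.60 and 2.43 CPM with FB23, and 8.18, 7.87 and 7.35 CPM with FB23-2. FB23 libraries overlapped those of DMSO (log2 0.26, interval -0.20 to 0.71, not called), and FB23-2 libraries lay above both (4.58-fold, log2 2.20, interval 1.80 to 2.59). KLF5, an epithelial and stem cell factor (chromosome 13, 73054976 to 73077542), stood at 1.40, 0.842 and 1.11 CPM in DMSO, 1.72, 1.57 and 1.38 CPM with FB23, and 10.4, 9.37 and 10.9 CPM with FB23-2. It rose 9.14-fold with FB23-2 (log2 3.19, interval 2.80 to 3.58), while its lowest FB23 library fell within the DMSO range (log2 0.44, interval -0.04 to 0.93, not called). Of the 4 epithelial markers, KRT8, KRT18 and KRT19 also rose with FB23-2 (log2 2.35, 1.52 and 2.55) and EPCAM fell (log2 -1.77), and their part in the KLF5 value was not tested.

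KLF7, the closest relative of KLF6 (chromosome 2, 207074137 to 207167267), was barely read. It had 1 count over the DMSO libraries, 1 with FB23 and 13 with FB23-2, of which 9 came from FB23-2 replicate 1. The count ratio of FB23-2 to DMSO was 10.6, with a 95% counting interval of 1.60 to 452. Without the low-count filter KLF7 was called as higher with FB23-2, which makes 7 calls in place of 6. Nearly all KLF7 counts came from the FB23-2 libraries, so nothing is read from that call.

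**Figure D3:**
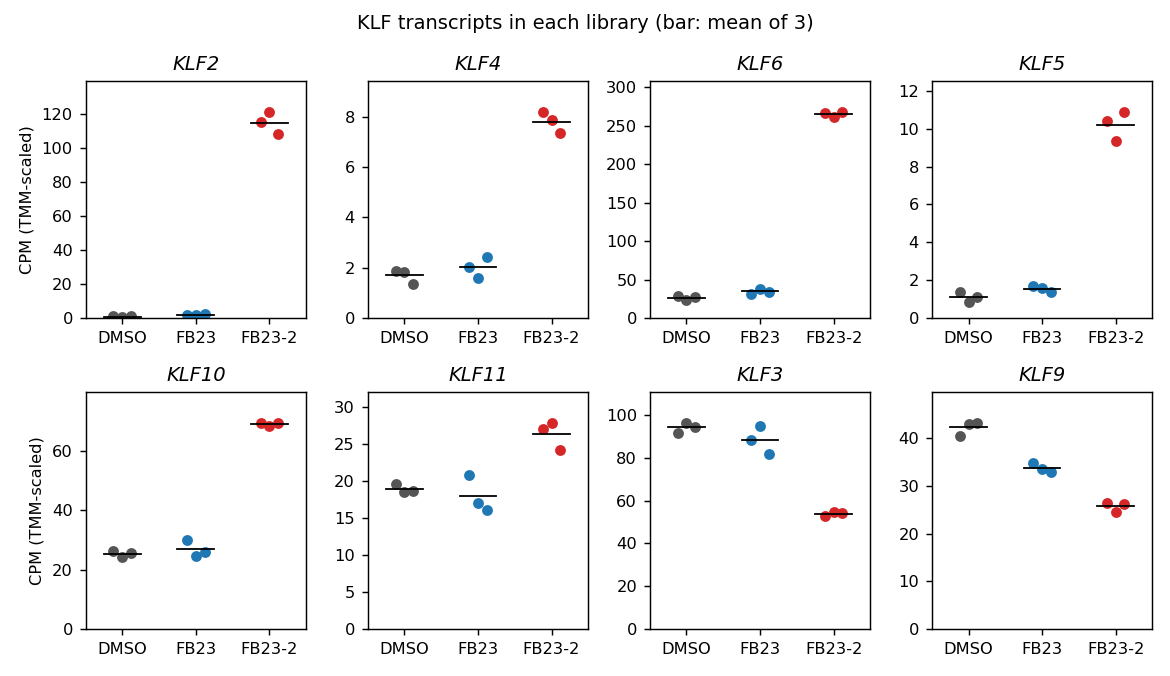
Each panel gives 1 gene in TMM-scaled CPM (y axis, from 0) for the 3 libraries of DMSO, FB23 and FB23-2, with a bar at the mean. FB23-2 points lie above all others in 6 panels and below all others for KLF3 and KLF9.

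The DNA just before the start of 4 of these genes is shown. They were picked by their fold changes: KLF2, KLF4 and KLF6 rose with FB23-2 and KLF9 fell. Differences between the 4 stretches therefore carry no test. Each is the 250 bases before the start (RefSeq, GRCh38.p14), written 5′ to 3′ on the gene's strand. GENCODE, the source of the gene coordinates given here, places some starts elsewhere. By those coordinates the KLF4 window lies inside the gene, and the KLF2 and KLF6 windows overlap their genes. Capitals mark GGGCGG or its complement CCGCCC, the GC box that KLF and SP proteins can bind. They also mark CTA and TAG with any 4 bases between. This is looser than the palindrome that MEF2 proteins bind, where the 4 middle bases are A or T. MEF2 proteins are known to drive KLF2 and KLF4 downstream of the kinase ERK5.
KLF2, chr19:16324576-16324825, plus strand: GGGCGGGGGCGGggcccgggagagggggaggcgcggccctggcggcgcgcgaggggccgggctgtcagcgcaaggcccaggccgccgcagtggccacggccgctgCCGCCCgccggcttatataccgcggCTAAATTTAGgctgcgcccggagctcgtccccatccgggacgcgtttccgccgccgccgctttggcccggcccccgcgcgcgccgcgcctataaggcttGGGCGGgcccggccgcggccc
KLF4, chr9:107489770-107490019, minus strand: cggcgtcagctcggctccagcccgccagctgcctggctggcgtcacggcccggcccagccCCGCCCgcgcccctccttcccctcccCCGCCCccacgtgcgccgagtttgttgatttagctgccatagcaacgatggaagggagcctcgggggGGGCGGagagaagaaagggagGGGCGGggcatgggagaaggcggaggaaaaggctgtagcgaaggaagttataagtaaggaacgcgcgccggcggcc
KLF6, chr10:3785210-3785459, minus strand: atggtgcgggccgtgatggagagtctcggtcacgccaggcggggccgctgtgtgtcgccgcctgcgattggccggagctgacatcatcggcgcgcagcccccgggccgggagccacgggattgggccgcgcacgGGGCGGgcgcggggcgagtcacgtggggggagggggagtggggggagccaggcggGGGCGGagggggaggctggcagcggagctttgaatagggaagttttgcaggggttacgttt
KLF9, chr9:70414658-70414907, minus strand: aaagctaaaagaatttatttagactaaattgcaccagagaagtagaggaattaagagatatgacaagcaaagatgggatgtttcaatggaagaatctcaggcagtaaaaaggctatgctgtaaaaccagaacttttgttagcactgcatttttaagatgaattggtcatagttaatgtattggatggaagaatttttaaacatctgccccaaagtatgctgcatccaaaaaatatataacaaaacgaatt

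On both strands, GGGCGG matched 4 times in KLF2, 4 times in KLF4, 2 times in KLF6 and 0 times in KLF9. Of 35116 windows of the same length outside chromosome 8, 42.6% held at least 1 match, 24.3% at least 2 and 7.63% at least 4. KLF2 held 1 match of CTA and TAG with any 4 bases between, and KLF4, KLF6 and KLF9 held none. This loose pattern was found in 2.36% of windows, whatever the middle bases. CACCC or GGGTG, found in 54.7% of windows, matched in none of the 4. TGACG or CGTCA (21.2% of windows) matched 2 times in KLF4, CACGTG (6.34%) 1 time each in KLF4 and KLF6, and CCAAT or ATTGG (32.0%) 2 times each in KLF6 and KLF9. Bases were G or C for 80.0% in KLF2, 72.4% in KLF6, 69.2% in KLF4 and 32.4% in KLF9. The median over all windows was 58.0%. A stretch just after the start was found in a GENCODE transcript of the gene for KLF2, KLF4 and KLF6, but not for KLF9. Windows on chromosome 8, where KLF10 lies, were left out. The rest held 8 of the 10 listed genes, at 13 starts, of which 8 held GGGCGG. The loose pattern of CTA and TAG matched at 2 starts, KLF2 and 1 start of KLF11. The middle bases were AATT in KLF2 and GCGG in KLF11, so the KLF11 match lacks the A or T of a MEF2 site. KLF5, which also rose with FB23-2, had 0 GGGCGG matches and 40.8% G or C at 1 start, and 2 matches and 70.8% at the other. A match of letters shows no binding.

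KLF3, the CtBP-recruiting repressor that KLF1 is known to switch on in red cell precursors (chromosome 4, 38664196 to 38701042), was the most abundant member in DMSO and fell with FB23-2. It stood at 91.9, 96.6 and 94.7 CPM in DMSO, 88.4, 95.1 and 82.1 CPM with FB23, and 52.7, 54.9 and 54.4 CPM with FB23-2. FB23 overlapped DMSO (log2 -0.09, interval -0.21 to 0.02, not called), and FB23-2 lay below both (1.75-fold lower, log2 -0.81, interval -0.93 to -0.69). KLF3 shares reads with the antisense transcript KLF3-AS1: their expected counts sum to whole numbers in every library. KLF3-AS1 took 0.911% to 1.17% of that sum in DMSO, 1.13% to 1.95% with FB23 and 3.04% to 4.30% with FB23-2. The kit keeps strand, but the strand setting of the counting is not given in the sources used here.

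The SIN3A-recruiting members split. KLF10, an early target of TGF-beta on chromosome 8, stood at 26.3, 24.3 and 25.7 CPM in DMSO, 29.9, 24.6 and 26.0 CPM with FB23, and 69.4, 68.4 and 69.5 CPM with FB23-2. It rose 2.72-fold with FB23-2 (log2 1.44, interval 1.30 to 1.59). With FB23 the value was log2 0.06 (interval -0.09 to 0.21, not called) and turned to -0.0066 without FB23 replicate 1, the highest of that group. KLF11, its close relative (chromosome 2, 10042849 to 10054836), stood at 19.6, 18.5 and 18.6 CPM in DMSO, 20.7, 17.0 and 16.1 CPM with FB23, and 27.0, 27.9 and 24.2 CPM with FB23-2. FB23 libraries reached above and below those of DMSO (log2 -0.11, interval -0.30 to 0.09, not called), and KLF11 rose 1.40-fold with FB23-2 (log2 0.48, interval 0.30 to 0.67).

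KLF9, a factor induced by thyroid and glucocorticoid hormones (chromosome 9, 70384597 to 70414624), was the one member called lower with both compounds. It stood at 40.4, 43.0 and 43.2 CPM in DMSO, 34.7, 33.6 and 32.8 CPM with FB23, and 26.4, 24.6 and 26.2 CPM with FB23-2, so that the groups formed 3 separate steps. KLF9 fell by 0.33 on the log2 scale with FB23 (interval -0.46 to -0.20) and by 0.71 with FB23-2 (interval -0.85 to -0.58). These comparisons share the DMSO libraries. The step between the compounds (log2 -0.39, interval -0.51 to -0.26) was not called on log2(TPM + 1), at -0.14 (limma, adjusted p = 0.0952), and in TPM the highest FB23-2 library (8.91) passed the lowest FB23 library (8.82).

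Read against each other at the same time, FB23-2 and FB23 differed for each tested member. FB23-2 was higher by log2 5.82 for KLF2 (interval 5.62 to 6.02, 56.6-fold), 2.92 for KLF6 (2.79 to 3.06), 2.75 for KLF5 (2.40 to 3.09), 1.94 for KLF4 (1.58 to 2.30), 1.39 for KLF10 (1.25 to 1.52) and 0.59 for KLF11 (0.41 to 0.77). It was lower by log2 -0.71 for KLF3 (interval -0.83 to -0.60) and, as above, for KLF9.

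By root mean square difference of log2 CPM over the 9 libraries, each gene centred on its DMSO mean, the patterns most like KLF2, KLF6 and KLF5 were sought among 10912 genes. CDKN1A, the cell cycle inhibitor p21, came nearest to KLF2 (0.32 log2 units), followed by BAIAP3 (0.33). Nearest to KLF6 were ENO2, a glycolytic enzyme, at 0.07, SDC4, a cell surface proteoglycan, at 0.08 and BTG2, an antiproliferative gene, at 0.11. Nearest to KLF5 were ZDBF2 (0.16), DUSP8 (0.17) and BTG2 (0.20). ENO2 had log2 fold changes of 0.38 with FB23 and 3.28 with FB23-2, beside 0.39 and 3.31 for KLF6. As ENO2 was picked by its likeness to KLF6 in these same libraries, this nearness is built in.

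KLF genes outside the list were not all higher with FB23-2. From here on, values with ± are log2 fold changes with their SE. The counts that follow are to be read beside the shares of all genes called with FB23-2, 41.3% higher and 41.3% lower, and with FB23, 12.3% and 11.2%. Of 7 with a row, 5 were tested, and with FB23-2 2 rose and 3 fell (median log2 fold change -1.20, beside 0.01 over all genes). KLF14, 1 of those that rose, passed the low-count filter only through its FB23-2 libraries, so nothing is read from its call. KLF1 dropped from 284, 257 and 263 CPM in DMSO to 17.3, 20.4 and 18.6 CPM with FB23-2 (log2 -3.84 ± 0.08). The erythroid marker sum, which includes KLF1, also fell, and the part of the other markers' shifts in the KLF1 value was not tested. KLF15, known from muscle and liver metabolism, fell from 6.95, 4.83 and 4.63 CPM to 1.197, 1.19 and 0.668 CPM (log2 -2.38 ± 0.22). KLF16, a relative of KLF9, fell from 119.9, 110.3 and 119 CPM to 49.1, 52.3 and 50.9 CPM (log2 -1.20 ± 0.06), and also with FB23 (log2 -0.28 ± 0.05, edgeR adjusted p = 0.00165).

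KLF12, a CtBP-recruiting relative of KLF3, rose with FB23-2 from 7.50, 11.2 and 9.68 CPM to 21.3, 24.2 and 24.1 CPM (log2 1.28 ± 0.11), opposite in direction to KLF3. KLF14 had 1 count in DMSO, 12 with FB23 and 44 with FB23-2, a count ratio of FB23-2 to DMSO of 36.0 (95% counting interval 6.13 to 1453). With FB23, KLF16 was the single call among these 5 genes, which became 2 with DESeq2 or without FB23 replicate 3. KLF8 had 0 counts in DMSO, which allows up to 0.0595 CPM, and 2 in each other group, and KLF17 had 5, 5 and 4 counts.

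The SP factors are relatives that bind the same GC boxes. Of 8 tested, 2 rose and 2 fell with FB23-2 (median -0.06 beside 0.01), and 1 rose and 1 fell with FB23 (median -0.09 beside 0.00). SP6 rose from 15.5, 16.5 and 15.8 CPM in DMSO to 52.4, 50.9 and 52.5 CPM with FB23-2 (log2 1.70 ± 0.07). SP4 rose by log2 0.75 ± 0.07 with FB23-2 and by 0.23 ± 0.07 with FB23 (edgeR adjusted p = 0.0302). That FB23 call was lost with DESeq2, with the replicate block, on log2(TPM + 1), and without DMSO replicate 1, DMSO replicate 2 or FB23 replicate 2. SP5 fell by 1.06 ± 0.27 with FB23-2. SP1, the ubiquitous member, fell by 0.36 ± 0.05 with FB23-2, but in TPM the groups overlapped. There DMSO libraries ran from 26.1 to 28.1 and FB23-2 libraries from 23.5 to 26.8. The fall of SP1 with FB23 was by 0.20 ± 0.05 (edgeR adjusted p = 0.00434), a call lost with limma on log2(TPM + 1). SP2 (log2 0.13), SP3 (-0.09), SP8 (-0.03) and SP9 (-0.19) were not called with FB23-2.

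Co-regulators that KLF proteins recruit changed in both directions with FB23-2, in a balance that depended on the scaling. Of 17 tested, 4 rose and 9 fell (7 and 5 with upper-quartile factors, 7 and 4 on log2(TPM + 1)), with a median of -0.20 beside 0.01. KAT2A, a histone acetyltransferase, fell by 1.36 ± 0.05 and HDAC2, a deacetylase of the SIN3A complex, by 0.97 ± 0.05. KAT2B, the acetyltransferase PCAF, rose by 0.81 ± 0.07, from 37.6 to 66.0 CPM, and FHL3, a partner of KLF3, by 0.67 ± 0.06. With FB23, SAP30, a SIN3A subunit, rose by 0.24 ± 0.07, and CREBBP, the coactivator CBP, and NCOR1, a corepressor, fell by 0.18 ± 0.05 and 0.17 ± 0.05. Without DMSO replicate 2 or DMSO replicate 3, 1 gene of the list was called, as on log2(TPM + 1).

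Upstream regulators had 11 of 21 tested higher and 4 lower with FB23-2, where 82.6% of all genes were called (median 0.19 beside 0.01). FBXO32, a ubiquitin ligase subunit reported to target KLF4, rose by 2.60 ± 0.22, and SMAD3, which carries TGF-beta signals to genes such as KLF10, 2.83-fold, from 73.7 to 209 CPM. Along the ERK5 route to KLF2 and KLF4, MAPK7, which encodes ERK5, rose by 0.70 ± 0.12 and MAP3K3 by 1.24 ± 0.05. Other kinase genes of the list moved less. MAP2K5 had a mean of 20.0 CPM in DMSO and 18.4 CPM with FB23-2, and MAP3K2 30.9 and 35.3 CPM. The part of this route in the KLF values was not tested. The MEF2 genes went apart: MEF2D rose by 0.81 ± 0.08 and MEF2A by 0.45 ± 0.06, and MEF2C fell by 0.99 ± 0.07. THRA, a thyroid hormone receptor gene, fell by 0.50 ± 0.08. With FB23, MAP3K3 rose by 0.39 ± 0.06 and SMAD4 by 0.17 ± 0.05, and MEF2D fell by 0.24 ± 0.08, the opposite of its change with FB23-2 (difference log2 1.04 ± 0.07 between the compounds). The MEF2D call with FB23 (edgeR adjusted p = 0.0395) was lost with the replicate block, library totals or no filter, and without DMSO replicate 3 or FB23 replicate 2, 1 gene of the list was called. MAPK7, MEF2A, MAP2K5 and MAP3K2 were picked for this text after their values were seen.

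Genes reported as KLF targets had 7 of 13 tested higher and 3 lower with FB23-2, again beside 82.6% of all genes called (median 1.16 beside 0.01). CDKN1A, a target of KLF4 and KLF6, rose by 7.13 ± 0.09. LGALS3, a KLF3 target, had 10 counts over the DMSO libraries and 184 with FB23-2. LGALS3, PDGFA and ITGB7 passed the low-count filter only through FB23-2 libraries. Nothing is therefore read from their calls or from their part in the list's totals, which include them. THBD, thrombomodulin, and NOS3, the endothelial nitric oxide synthase, are genes that KLF2 raises in vessel walls, and fell by 1.69 ± 0.14 and 1.42 ± 0.08. S1PR1, another reported target of this list, went the other way, from a mean of 1.78 CPM in DMSO to 4.48 CPM with FB23-2. It was picked for this text after its values were seen. With FB23, CDKN1A and TGFB1 rose by 0.97 ± 0.14 and 0.31 ± 0.06, and CCND1, cyclin D1, and THBD fell by 0.93 ± 0.09 and 0.43 ± 0.12. CD14, a monocyte gene that KLF4 raises, had 16, 21 and 13 counts in the 3 groups and was not tested.

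**Figure D4:**
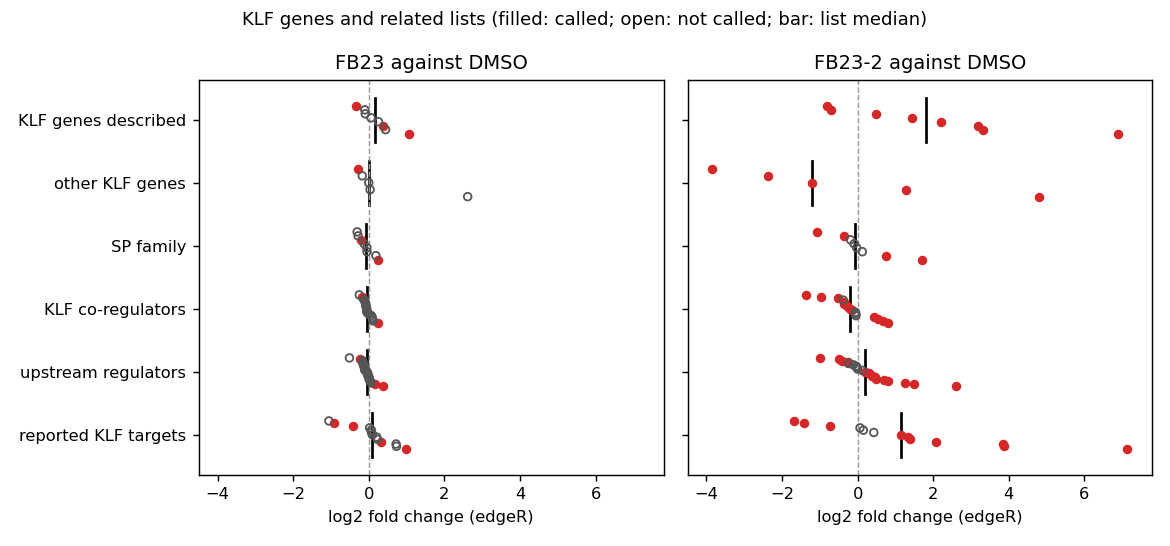
Points give the log2 fold change (x axis, edgeR) of each tested gene in the KLF genes described and in 5 related lists, for FB23 and for FB23-2 against DMSO; filled points were called, bars mark list medians and the dashed line the median of all genes. With FB23-2 the medians run from -1.20 for the other KLF genes to 1.82 for the KLF genes described, and with FB23 all lie between -0.09 and 0.16.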

How the data were processed

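RNA was extracted with TRIzol, poly(A) selected and made into strand-keeping NEBNext libraries, per the labels' protocols. The authors deposited 1 table per library, with expected counts per gene by RSEM and TPM, scaled for gene length, per the file headers. FPKM values and the gene length and effective length (other columns, in bases), deposited by the authors in the same tables, were not used for tests. RSEM 1.2.31 and GRCh38 are named in the submitters' processing notes. The sources used here give no aligner, annotation, strand setting or filter. Each gene had 1 transcript and 1 length in every library, so a planned look at transcript mix gave no values.

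Expected counts were rounded. The test was edgeR 4.0.16 (R 4.3.3): filterByExpr (minimum count 10, minimum total 15), TMM factors and a quasi-likelihood fit of 1 mean per group over all 9 libraries, two-sided, with Benjamini-Hochberg adjustment over 13365 genes. Standard errors were derived from F, and intervals are at 95%. The fit was tested on simulated data. Alternatives were 3 other scalings, no filter, DESeq2 1.42.0, limma 3.58.1 on log2(TPM + 1), fits of 6 libraries, the replicate block and leaving out each library. Counting limits (3 counts over a group) and counting intervals cover counting error only. Library depth is given with the results.

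The members and lists were chosen with earlier results of these data known. The rule for named genes took all listed KLF genes, the other KLF and SP genes tested, and the 2 highest and 2 lowest called genes of each remaining list in each comparison with DMSO. Pattern likeness took the 3 nearest genes, at or above a mean log2 CPM of 1 and without clone-like names, to the 3 listed genes that changed most with FB23-2. Some genes that the rule or lists hold are not reported here. Coordinates are from GENCODE release 29 on GRCh38. No 2 replicates held the same counts.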

Additional observations from a re-analysis of the deposited data

How the results depend on the processing

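The counts of KLF genes called, higher and lower, stayed within 1.5 times in all 3 comparisons and under all alternatives run, except that on log2(TPM + 1) 1 gene in place of 2 was lower with FB23-2 than with FB23. Of the recomputed fold changes of single KLF genes, 406 kept direction and side of the threshold, 1 changed sign, KLF10 with FB23 (-0.0066 to 0.12 with 1 library left out, lowest without FB23 replicate 1), and 1 lost its call, KLF9 between the compounds on log2(TPM + 1) (-0.14). For FB23 against DMSO, the other KLF genes had 2 calls with DESeq2 and 1 to 2 when 1 library was left out. The SP genes had 1 call with DESeq2, 0 with limma on log2(TPM + 1), where 3 had an unadjusted p under 0.05, 1 with the replicate block and 1 to 2 with 1 library left out. The co-regulators had 1 call on log2(TPM + 1) and 1 to 4 with 1 library left out, and the upstream regulators 1 and 1 to 3. The causes were not tested. For all genes with FB23, leaving out 1 library gave 2112 to 3305 calls.

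Against TMM, upper-quartile factors shifted the median of all genes by 0.17 with FB23-2 against DMSO and library totals by 0.15, and by 0.17 and 0.12 between the compounds. On log2(TPM + 1) the calls with FB23-2 split into 6755 higher and 4261 lower, beside 5523 and 5518. Same-numbered libraries of different groups had correlations of their deviations from -0.18 to 0.09 (0.03 to 0.09 for pairs with DMSO). Different-numbered ones had -0.13 to 0.17. With 3 libraries per group these values cannot tell whether the numbers pair samples. The replicate block gave 2504 calls with FB23 beside 3144. Depth limits KLF7, KLF8, KLF14 and KLF17, which had at most 44 counts in any group.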
